A study of Mus musculus with 9 samples.

Results

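The genes described here are 9 members of the BCL2 family and Cflar, the gene of cFLIP. They were chosen by symbol, with earlier results of these data known, from the deposited expected counts, which hold 55450 gene identifiers. All 10 genes were found and passed the filter on low counts, among 14246 genes tested in all. Total RNA came from IMM cells, an immortalized mouse macrophage line with the genotype WT, grown in supplemented DMEM. The groups were 0 min (treatment none, the control), 30 min and 60 min of lipopolysaccharide (LPS) at 100 ng/mL, with 3 libraries per time, called biological replicates in the design text. The labels do not say how many dishes a library pooled, or whether replicates came from separate thaws, so p-values measure the spread between these libraries. All groups are one line of one genotype, and no library of 30 or 60 min without LPS is among the samples. The effects of LPS, of handling and of elapsed time cannot be told apart. In bulk RNA, fewer cells expressing a gene and less RNA per cell cannot be told apart either.

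Proteins of the BCL2 family decide whether the outer mitochondrial membrane is opened, the step that releases cytochrome c and starts the caspases. The guardians MCL1, BCL-XL (Bcl2l1), BCL2 and A1 (the Bcl2a1 copies) hold the pore formers BAX and BAK in check, and the BH3-only proteins BIM (Bcl2l11), NOXA (Pmaip1), PUMA (Bbc3) and BID neutralize the guardians or activate the pore. cFLIP acts upstream of them at death receptors, where it resembles caspase-8 and limits its activation. In macrophages LPS starts survival signals through NF-κB, of which A1 and cFLIP are textbook targets, together with death signals through TNF, so that both arms are commonly studied there.

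Libraries held 26867428 to 30402308 counts, and levels are in CPM, the usual unit of counts scaled by library total, here with edgeR's TMM adjustment. Markers of the labelled cell type were abundant. The 8 macrophage markers summed to 1945 to 2076 CPM by plain totals with none at 0, led by the growth factor receptor gene Csf1r. Summed markers of T cells reached 4.01 CPM, most of it from Lck (highest group mean 3.62 CPM), with Cd3e at 0. Those of neutrophils reached 0.385 CPM with S100a9 and Ly6g at 0. Fibroblast markers reached 0.210 CPM with Col3a1, Pdgfra and Dcn at 0, and epithelial ones 0.0700 CPM with Krt8 at 0. Endothelial markers lay at 1.23 to 2.2 CPM and dendritic cell markers, led by Batf3, at 13.6 to 18.4 CPM, none at 0. The dendritic cell sum was 13.6 to 15.2 CPM at 60 min and 16.8 to 17.9 CPM at 0 min, and its part in any result below was not tested. Replicate 1 was the highest 30 min library for 6 of the 6 members called higher at 60 min. The same held for 53.7% of all 1891 genes called higher at 60 min. Its distance to the next library was wide in Cflar (151 against 107 CPM). It was small in Bcl2a1b (5.35 against 5.27 CPM) and Pmaip1 (46.2 against 44.6 CPM). Values without replicate 1 of 30 min are given for the changes, shares, levels and ratios at 30 min.

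In the first 30 min of LPS, 6 of the 10 genes rose and none fell (edgeR quasi-likelihood test, Benjamini-Hochberg adjusted p under 0.05, over all genes tested). They were Bcl2l11, Pmaip1, Cflar, Mcl1, Bcl2a1b and Bcl2a1d, by 1.46-fold for Mcl1 up to 3.01-fold for Bcl2l11 and 3.34-fold for the sparsely counted Bcl2a1d. The Bcl2a1d call (adjusted p = 0.0478) was lost in 12 of the alternatives tried, which leaves 5 genes. Over all genes tested, 4.84% were called higher in this comparison, 3.35% lower and 8.18% in either direction, and the median log2 change was 0.01. At 60 min against 0 min the genes called were again these 6, all higher, where 13.3% of all genes tested were called higher, 11.7% lower and 25.0% in either direction. Both comparisons share the 0 min libraries. From 30 to 60 min Cflar, Bcl2a1b, Bcl2l11 and Mcl1 rose further and Pmaip1 fell, while the background was 8.87% higher, 7.65% lower and 16.5% in either direction. Bcl2, Bcl2l1, Bbc3 and Bid were not called in any comparison. The genes that rose were thus from both arms of the family: Mcl1 and the A1 copies among the guardians, Bcl2l11 and Pmaip1 among the BH3-only genes, and cFLIP beside them. With the 4 A1 copies summed to a single gene, 5 of 9 genes were called at 30 and at 60 min. The 10 genes were chosen with earlier results of these data known. An excess over the shares of all genes, here or below, is thus no evidence about the family. Of 10 other BCL2 family genes tested, 1 was higher at 30 min, and 2 were higher and 2 lower at 60 min.

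**Figure D1:**
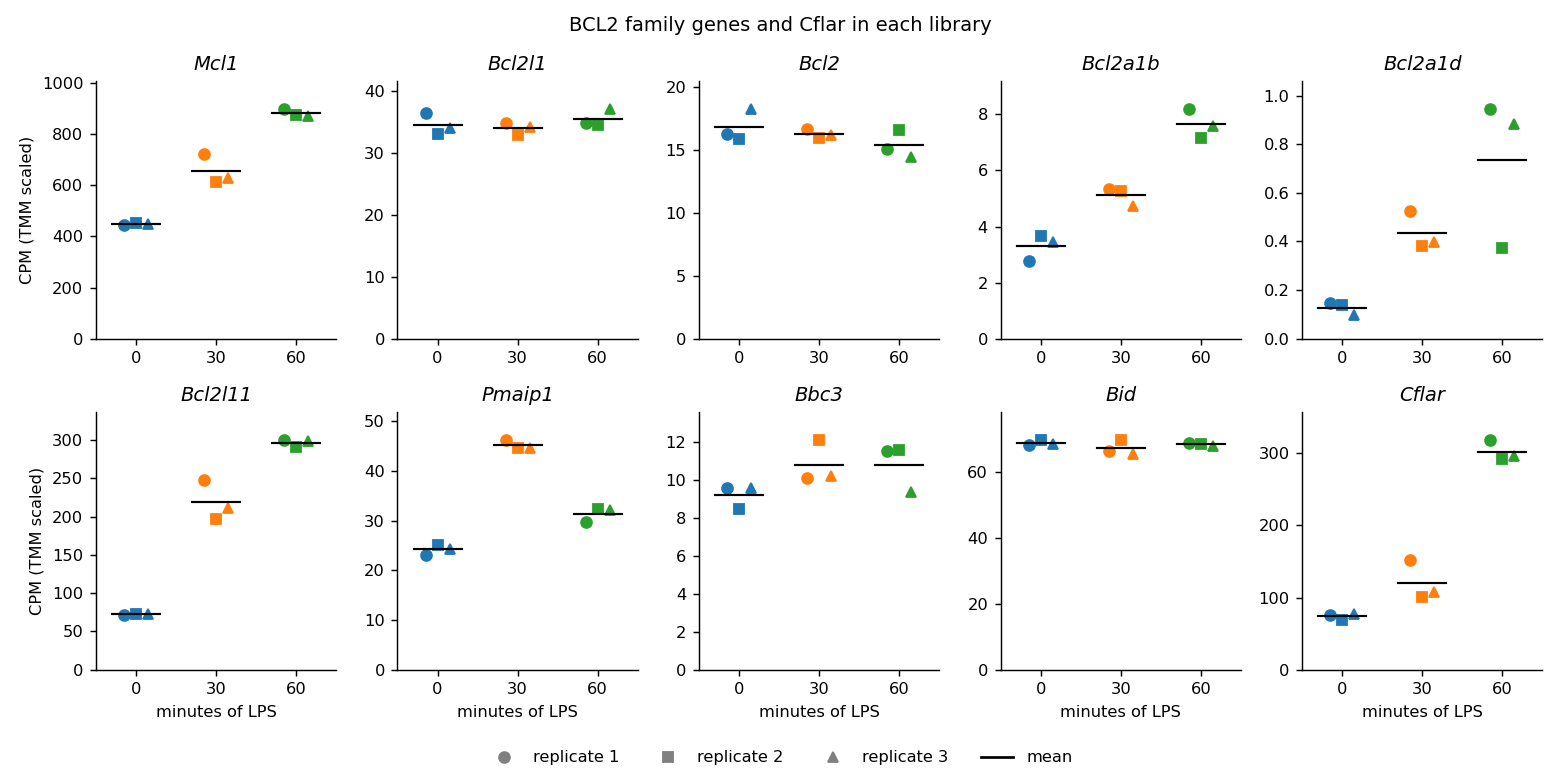
Level of each of the 10 genes in every library, in CPM after TMM scaling (vertical axes from 0, a scale of its own for each gene), against minutes of LPS; points are libraries, their shapes the replicate numbers, and lines the means. Mcl1, Bcl2l11, Cflar, Bcl2a1b and Bcl2a1d were higher at 60 than at 0 min in every library, Pmaip1 was highest at 30 min, and the groups of Bcl2, Bcl2l1 and Bid overlap.

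All 30 min libraries lay above all 0 min libraries for 7 of the 10 genes, the 6 called and Bbc3, against 14.1% of all genes tested. All 60 min libraries lay above all 0 min libraries for the 6 called genes, against 19.6%. From 30 to 60 min the libraries of 4 genes lay wholly above the earlier ones (17.1% of all genes) and those of 1, Pmaip1, wholly below (16.7%).

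**Figure D2:**
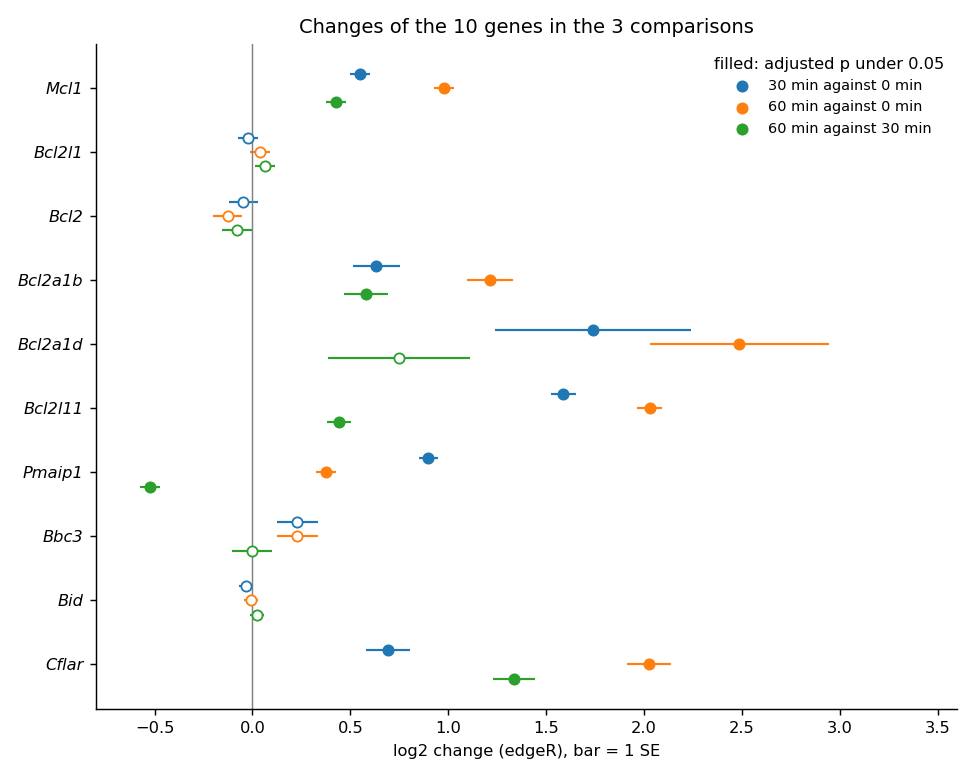
Log2 change of each gene in the 3 comparisons as fitted by edgeR, with bars of 1 SE; filled points have an adjusted p under 0.05. Bcl2l11 and Cflar reached the same change at 60 min, 2.03, from 1.59 and 0.69 at 30 min, and Pmaip1 is the gene with a negative change from 30 to 60 min among those called.

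Mcl1 encodes a short-lived guardian that binds BIM, NOXA and BAK. The gene lies at chr3:95658788-95663176 (GRCm38, GENCODE M21), + strand, with 3 exon blocks. It stood at 445, 451 and 449 CPM at 0 min, at 724, 614 and 629 CPM at 30 min, and at 901, 876 and 871 CPM at 60 min. Every library of a later time was above every library of an earlier one. The log2 change was 0.55 (SE 0.05, adjusted p = 4.82e-06) at 30 min and 0.98 (SE 0.05, adjusted p = 3.18e-09) at 60 min, a 1.97-fold rise with a 95% interval of 1.82 to 2.12. The step from 30 to 60 min was 0.43 (SE 0.05, adjusted p = 3.89e-05). Without replicate 1 of 30 min the change at 30 min was 0.47 and the step to 60 min 0.51.

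The A1 copies form a cluster on chromosome 9, Bcl2a1b at chr9:89199209-89207827 (+ strand) and Bcl2a1d at chr9:88723285-88731914 (- strand), with Bcl2a1a at chr9:88956900-88962419 (+ strand). Bcl2a1b stood at 2.79, 3.65 and 3.44 CPM at 0 min, at 5.35, 5.27 and 4.73 CPM at 30 min, and at 8.21, 7.16 and 7.60 CPM at 60 min. The groups did not overlap at any step. Its log2 change was 0.63 (SE 0.12, adjusted p = 0.00413) at 30 min, and 1.21 (SE 0.12, adjusted p = 2.34e-06) at 60 min, a 2.32-fold rise. From 30 to 60 min the change was 0.58 (SE 0.11, adjusted p = 0.00217).

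Bcl2a1d was close to the floor of the data. Its expected counts were 4.25, 4.37 and 3.46 at 0 min, 14.71, 10.73 and 11.3 at 30 min, and 26.66, 10.94 and 26.48 at 60 min. The 0 min libraries were the lowest. Replicate 2 of 60 min lay among the 30 min libraries by count and, at 0.373 CPM, below all 3 of them after scaling. The log2 change was 1.74 (SE 0.50, adjusted p = 0.0478) at 30 min and 2.49 (SE 0.46, adjusted p = 0.000999) at 60 min, which corresponds to 5.60-fold with a 95% interval of 2.84 to 11.1. The change from 30 to 60 min, 0.75 (SE 0.36, adjusted p = 0.2), was not called. The call at 30 min did not hold in 12 of the alternatives tried, with adjusted p of 0.0507 to 0.15, and in the authors' deposited table the 30 min adjusted p of Bcl2a1d was 0.171.

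How a read was assigned to one copy or another matters for these values, because the copies are nearly the same. The first 90 coding bases of the 3 copies with counts are shown to make this visible, with capitals at the 6 positions of the stretch where the copies differ (GENCODE M21 transcripts, GRCm38, coding strand, position 1 at the start codon).
Bcl2a1b, chr9:89199360-89199449, + strand: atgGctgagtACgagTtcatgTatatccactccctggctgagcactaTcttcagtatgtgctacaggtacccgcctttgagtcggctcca
Bcl2a1d, chr9:88731630-88731719, - strand: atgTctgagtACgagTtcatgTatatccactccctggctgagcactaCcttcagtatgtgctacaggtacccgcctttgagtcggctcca
Bcl2a1a, chr9:88957051-88957140, + strand: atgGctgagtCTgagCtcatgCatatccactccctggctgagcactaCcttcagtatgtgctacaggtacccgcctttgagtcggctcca
Over the 519 coding bases, 12 positions differed among the 3 copies. Bcl2a1b and Bcl2a1d were 98.8% identical, with 6 substitutions written from Bcl2a1b to Bcl2a1d: G4T, T48C, A94C, G312A, C381G and T490A. Of the 100-base stretches of the Bcl2a1b transcript, 31.1% occur unchanged in the Bcl2a1d transcript, and of the 50-base stretches 57.6%. Reads from such stretches are divided between copies by the counting model, and their origin cannot be read from the counts.

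Summing the 4 copies to a single gene before the fit avoids that division. The sum stood at 2.93, 3.83 and 3.54 CPM at 0 min, at 5.91, 5.65 and 5.20 CPM at 30 min, and at 9.29, 7.77 and 8.62 CPM at 60 min. These groups did not overlap. The log2 change of the sum was 0.70 (SE 0.12, adjusted p = 0.00186) at 30 min and 1.31 (SE 0.12, adjusted p = 9.78e-07) at 60 min, a 2.49-fold rise, and from 30 to 60 min it was 0.61 (SE 0.11, adjusted p = 0.00133). Bcl2a1b was assigned 88.2% to 96.8% of the counts of the 4 copies in each library, and Bcl2a1c had 0 counts in all 9. On the same strand, 401 bases of the Bcl2a1b exons (49.1%) are also annotated to the gene Gm29094, which was assigned 28.2 counts over the 9 libraries.

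The other guardians did not pass the test. Bcl2l1 (chr2:152780668-152831728, - strand), which encodes BCL-XL, stood at 36.5, 32.9 and 34.0 CPM at 0 min, at 34.8, 32.8 and 34.1 CPM at 30 min, and at 34.8, 34.4 and 37.1 CPM at 60 min. The groups overlapped, and the log2 change at 60 min was 0.04 with a 95% interval of -0.07 to 0.15. Bcl2 (chr1:106538178-106714274, - strand), the founding member of the family, stood at 16.2, 15.9 and 18.3 CPM at 0 min, at 16.7, 16.0 and 16.2 CPM at 30 min, and at 15.1, 16.6 and 14.5 CPM at 60 min. Its groups overlapped too, and the log2 change at 60 min was -0.13 (SE 0.07, adjusted p = 0.243) with an interval of -0.29 to 0.03. The interval for Bcl2l1 thus leaves room for a rise of up to 1.11-fold and that for Bcl2 for a level down to 0.820 of the control.

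Among the BH3-only genes, Bcl2l11 (chr2:128126038-128162547, + strand) rose most. It encodes BIM, which binds every guardian. The gene stood at 71.7, 73.4 and 73.0 CPM at 0 min, at 248, 197 and 211 CPM at 30 min, and at 300.3, 291 and 298 CPM at 60 min. Every later library was above every earlier one. The log2 change was 1.59 (SE 0.06, adjusted p = 7.07e-10) at 30 min, 3.01-fold with a 95% interval of 2.73 to 3.31, and 2.03 (SE 0.07, adjusted p = 2.6e-11) at 60 min, 4.08-fold with an interval of 3.70 to 4.49. From 30 to 60 min it was 0.44 (SE 0.06, adjusted p = 0.000163). Without replicate 1 of 30 min the 30 min change was 1.49 and the step to 60 min 0.54.

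Pmaip1, on chromosome 18, encodes NOXA, a BH3-only protein that binds MCL1 and A1. It stood at 23.1, 25.1 and 24.4 CPM at 0 min, at 46.2, 44.6 and 44.5 CPM at 30 min, and at 29.6, 32.4 and 32.2 CPM at 60 min. The 60 min libraries lay between the others, above all of 0 min and below all of 30 min. The log2 change was 0.90 (SE 0.05, adjusted p = 1.88e-08) at 30 min, 1.86-fold, and 0.38 (SE 0.05, adjusted p = 8.03e-05) at 60 min, 1.3-fold. Between 30 and 60 min Pmaip1 fell by 0.52 on the log2 scale (SE 0.05, adjusted p = 4.59e-06), 1.44-fold lower. Leaving out replicate 1 of 30 min gave 0.88 at 30 min and -0.50 from 30 to 60 min.

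Bbc3 (chr7:16308393-16318205, + strand) encodes PUMA, a BH3-only protein known as a p53 target. It stood at 9.61, 8.50 and 9.60 CPM at 0 min, at 10.1, 12.1 and 10.2 CPM at 30 min, and at 11.5, 11.6 and 9.37 CPM at 60 min. The 30 min libraries were all above those of 0 min, and at 60 min replicate 3 lay within the range of 0 min. The log2 change was 0.23 (SE 0.10) at both times, with adjusted p of 0.217 and 0.126. Without replicate 3 of 60 min the 60 min change was 0.32 and passed, with an adjusted p of 0.0363.

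Bid (chr6:120891930-120916853, - strand) encodes the BH3-only protein that caspase-8 cuts to carry a death receptor signal to mitochondria. It stood at 68.4, 69.8 and 68.5 CPM at 0 min, at 66.6, 69.9 and 65.7 CPM at 30 min, and at 68.8, 68.6 and 68.1 CPM at 60 min. The groups overlapped, and the log2 change at 60 min was -0.01 with a 95% interval of -0.08 to 0.07. Its exons share 628 bases, 17.7% of them, with exons of Bcl2l13 on the opposite strand. The strand setting of the counting is not given in the sources used here.

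Cflar (chr1:58711508-58758884, + strand) had the largest log2 change of the 10 genes between 30 and 60 min. It stood at 75.4, 69.3 and 77.6 CPM at 0 min, at 151, 100.2 and 107 CPM at 30 min, and at 318, 292 and 295 CPM at 60 min. Every later library was above every earlier one, and replicate 1 of 30 min was far above the other libraries of its time. The log2 change was 0.69 (SE 0.11, adjusted p = 0.00123) at 30 min, 1.61-fold, and 2.03 (SE 0.11, adjusted p = 5.85e-09) at 60 min, 4.07-fold with a 95% interval of 3.44 to 4.82. From 30 to 60 min it was 1.34 (SE 0.11, adjusted p = 1.2e-06), 2.52-fold. Without replicate 1 of 30 min the 30 min change was 0.49 (adjusted p = 5e-05) and the step to 60 min 1.54. The counting gave 1 value per gene, so the long and short forms of cFLIP were not separated.

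The genes that rose differed in how much of the 60 min difference in CPM was already there at 30 min. That share was 65.2% for Bcl2l11, with 55.5% to 78.3% for the single 30 min libraries against the group means of the other times. Bcl2a1d had reached 50.5% (41.8% to 65.4%), Mcl1 47.7% (38.1% to 63.6%), Bcl2a1b 41.8% (33% to 47.1%) and Cflar 20.0% (11.5% to 33.9%). Without replicate 1 of 30 min the share of Cflar was 13.0%, and those of Bcl2l11, Bcl2a1d, Mcl1 and Bcl2a1b were 58.6%, 43.1%, 39.8% and 39.2%. The ranges of Bcl2l11 and Cflar did not overlap, while those of Mcl1 and Bcl2a1b did. Pmaip1 had passed its 60 min difference by 30 min, at 291% of it. Without replicate 1 of 30 min, 5 of the 10 genes were called at 30 min: Bcl2a1b kept its call at 0.60 (adjusted p = 0.0173), and Bcl2a1d, at 1.58 (adjusted p = 0.15), did not.

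The sequences just upstream of 4 genes that rose are shown, the pair with the highest fold among the well-counted ones, the most abundant guardian and the leading A1 copy, to set the letters beside their courses. They are RefSeq promoter stretches (GRCm38.p6, 5′ to 3′ on the gene's strand, ending at the base before the RefSeq start, or for Bcl2a1b before the more upstream GENCODE start), with capitals at a match to an ETS or AP-1 motif.
Bcl2l11, chr2:128125788-128126037, + strand: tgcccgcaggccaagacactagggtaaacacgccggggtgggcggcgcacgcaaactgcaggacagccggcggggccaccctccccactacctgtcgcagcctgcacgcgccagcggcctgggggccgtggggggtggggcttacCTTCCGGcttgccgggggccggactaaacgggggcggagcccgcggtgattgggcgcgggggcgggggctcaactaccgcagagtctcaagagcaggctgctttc
Cflar, chr1:58711241-58711490, + strand: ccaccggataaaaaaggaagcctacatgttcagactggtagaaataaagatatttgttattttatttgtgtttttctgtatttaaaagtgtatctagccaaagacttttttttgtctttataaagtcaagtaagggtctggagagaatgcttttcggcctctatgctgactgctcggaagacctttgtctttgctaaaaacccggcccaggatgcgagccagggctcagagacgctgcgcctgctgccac
Mcl1, chr3:95658471-95658720, + strand: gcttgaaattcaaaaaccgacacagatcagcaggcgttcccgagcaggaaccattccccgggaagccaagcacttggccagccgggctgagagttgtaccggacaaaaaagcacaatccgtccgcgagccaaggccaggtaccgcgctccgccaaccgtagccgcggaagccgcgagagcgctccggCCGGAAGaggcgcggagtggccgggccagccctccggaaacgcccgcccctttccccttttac
Bcl2a1b, chr9:89199023-89199208, + strand: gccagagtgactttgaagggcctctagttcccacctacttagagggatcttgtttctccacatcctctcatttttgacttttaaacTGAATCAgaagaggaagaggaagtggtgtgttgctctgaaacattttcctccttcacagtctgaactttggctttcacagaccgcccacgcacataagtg
The stretch of Bcl2l11 is 72% G and C, that of Mcl1 64.4%, that of Bcl2a1b 45.7% and that of Cflar 42.8%. Bcl2l11 and Mcl1 each hold the ETS letters CCGGAAG, at positions -105 to -99 and -63 to -57 from the RefSeq start, the former on the opposite strand as CTTCCGG. Bcl2a1b holds TGAATCA at -164 to -158, a match to the AP-1 letters as searched here, TGANTCA. The search took any base at N, so it is looser than a form with C or G there. Positions are counted from its RefSeq start at 89199273, which lies downstream of the end of the stretch shown. The upstream stretch of Bcl2a1b was 99.5% identical to that of Bcl2a1a, with 1 edit in 186 bases, and 95.7% identical to that of Bcl2a1d. Both of those hold the same TGAATCA.

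Motifs of 6 kinds were searched on both strands of windows of 300 bases, from 250 before to 50 after a RefSeq start. Of the 10 genes, 9 had a window, 14 windows in all, and Pmaip1 had none. ETS letters stood in 3 of the 14 windows (Bcl2l1, Bcl2l11 and Mcl1), against 8.86% of 32851 mouse windows. The AP-1 letters as searched, TGANTCA, stood in 2 of the 14 (Bcl2a1b and Bcl2a1d), each as TGAATCA, against 7.81%. An NF-κB motif, given by its name, matched 2 of the 14 windows (Bbc3 and Bcl2l1), against 4.51% of all windows. Neither of these genes passed the test at 30 or 60 min. The cAMP response element TGACGTCA, found in 1.79% of windows, and the CArG box, in 1.63%, matched none of the 14. The shorter TGACG, part of the former, stood in 5 of the 14 windows, those of 5 genes, against 20.8%. A match describes letters and not a bound site.

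Levels can be set beside each other between genes once divided by length, here the union of annotated exons. At 0 min Mcl1 stood at 131 CPM per kb (SD 0.914, n = 3), followed by Bid at 19.4, Bcl2l11 at 9.06 and Pmaip1 at 8.85 CPM per kb, the last pair overlapping between libraries. Bcl2l1 was at 7.52, Cflar at 5.85, Bbc3 at 4.35 and Bcl2a1b at 4.03 CPM per kb, of which Bbc3 and Bcl2a1b overlapped, with Bcl2 at 1.84 and Bcl2a1d at 0.149 CPM per kb. At 60 min the order was Mcl1 (258 CPM per kb), Bcl2l11 (36.9), Cflar (23.8), Bid (19.3), Pmaip1 (11.5), Bcl2a1b (9.37), Bcl2l1 (7.72), Bbc3 (5.10), Bcl2 (1.68) and Bcl2a1d (0.851), and the libraries of neighbours in that order did not overlap. Bcl2l11 had taken the place of Bid by 30 min, at 27.2 against 19.0 CPM per kb. The 30 min levels of Bcl2l11, Cflar and Mcl1 without replicate 1 were 25.4, 8.19 and 182 CPM per kb. Cflar, below Bcl2l1 at 0 min, was above Bid at 60 min. With the longest annotated transcript as the length, Bcl2l1 and Cflar stood above Pmaip1 at 0 min, at 13.4, 11.3 and 8.87 CPM per kb, and Bcl2l1 above Pmaip1 at 60 min, while Mcl1, Bcl2l11, Cflar and Bid stayed in the order given for 60 min.

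**Figure D3:**
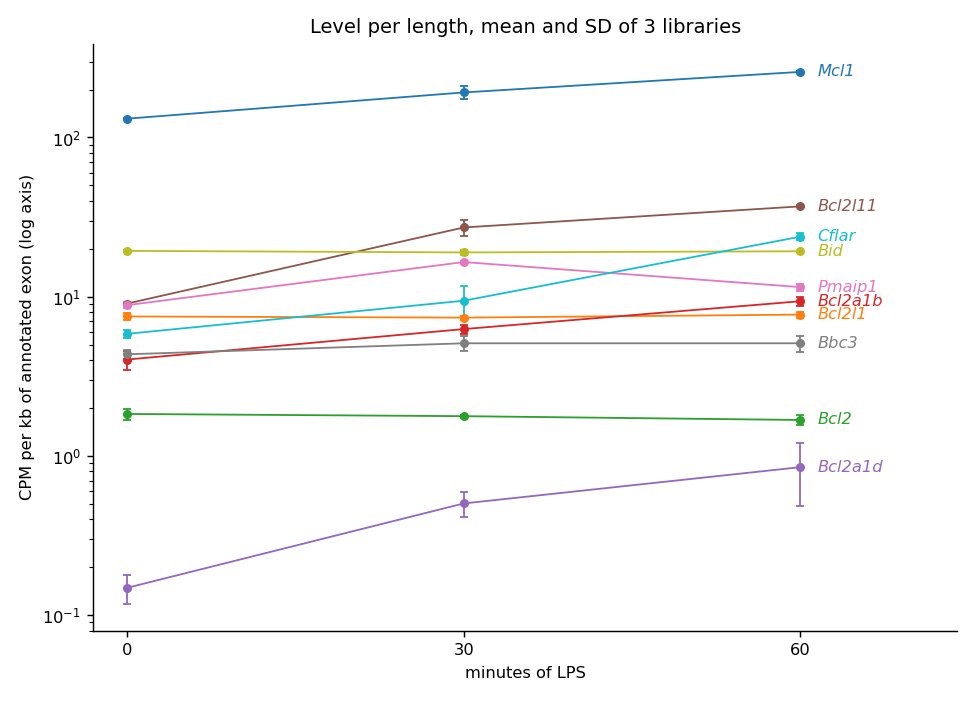
Mean level of each gene per kb of annotated exon (CPM per kb, log axis) against minutes of LPS, with bars of 1 SD over 3 libraries. Mcl1 is the highest at every time, Bcl2l11 passes Bid between 0 and 30 min, and Cflar climbs from 5.85 to 23.8 CPM per kb.

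BIM and NOXA both bind MCL1, so the transcripts were also expressed as ratios within each library. The level of Mcl1 per kb was 14.6, 14.4 and 14.4 times that of Bcl2l11 at 0 min, 6.86, 7.32 and 7.01 times at 30 min, and 7.04, 7.06 and 6.86 times at 60 min. It was thus lower at both later times, which overlapped with each other. Over Pmaip1 the ratio was 15.4, 14.4 and 14.7 at 0 min, 12.5, 11.0 and 11.3 at 30 min, and 24.3, 21.7 and 21.6 at 60 min, with 3 groups that did not overlap. The ratio to Pmaip1 was lowest at 30 min and highest at 60 min. The 30 min means without replicate 1 were 7.16 over Bcl2l11 and 11.1 over Pmaip1. With the longest annotated transcript as the length, the means over Bcl2l11 were 9.09, 4.43 and 4.38 at 0, 30 and 60 min. Those over Pmaip1 were 14.8, 11.6 and 22.5. The size of the ratio to Bcl2l11 thus depends on the length taken.

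Levels per kb were also summed over the 5 guardian genes and over the 4 BH3-only genes among the members. Other expressed BCL2 family genes were left out, such as Bcl2l2, Bmf and Bad (21.4, 13.8 and 9.19 CPM at 0 min). The guardian sum over the BH3-only sum was 3.47 (SD 0.00975, n = 3) at 0 min, 3.06 (SD 0.131) at 30 min and 3.81 (SD 0.0619) at 60 min. The groups did not overlap, and the ratio was lowest at 30 min. The mean at 30 min was 2.99 without replicate 1 of that time. Per longest transcript the means were 2.66 (SD 0.0113), 2.28 (SD 0.0786) and 2.71 (SD 0.0355) in the same order. By that length 60 min was only a little above 0 min. Mcl1 made up 90.7% of the guardian sum at 0 min and 92.9% at 60 min, so the sum is close to Mcl1 alone. Without Mcl1 the ratio was 0.325 at 0 min, 0.235 at 30 min and 0.269 at 60 min, so it was then highest at 0 min. Within the BH3-only sum Bcl2l11 made up 21.7% at 0 min, 40.1% at 30 min and 50.7% at 60 min, as the share of Bid went from 46.6% to 26.5% and that of Pmaip1 from 21.2% over 24.4% to 15.8%. These are ratios of RNA, chosen with the values known, and no test was made on them; protein was not measured.

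**Figure D4:**
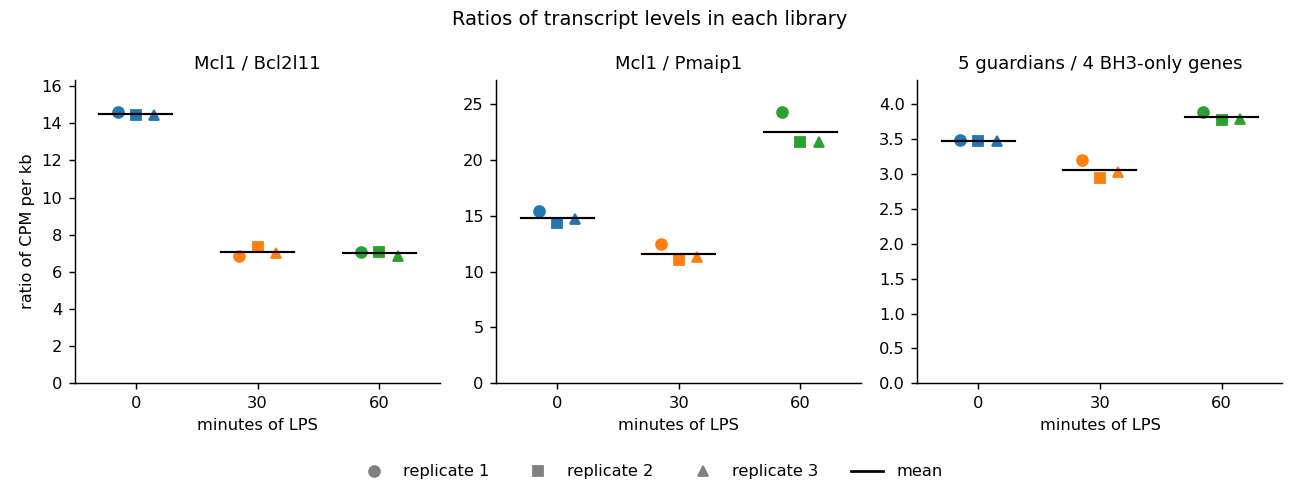
Ratios of levels per kb of annotated exon in each library (vertical axes from 0) against minutes of LPS. They are Mcl1 over Bcl2l11, Mcl1 over Pmaip1, and the 5 guardians over the 4 BH3-only genes among the members. Points are libraries, shapes replicate numbers, and lines means. The first ratio goes from 14.5 to 7.06 and 6.99, and the other two are lowest at 30 min and highest at 60 min.

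The genes with the closest course were sought among 9959 other tested genes with a mean of at least 5 CPM, by the root mean square difference in log2 CPM over the 9 libraries after centring on 0 min. For Bcl2l11 they were Irs2, an insulin receptor substrate gene (0.0663), the small GTPase gene Rhob (0.0879) and the lipid droplet gene Hilpda (0.104). For Cflar they were the adhesion molecule gene Icam1 (0.0691), the tetrahydrobiopterin synthesis gene Gch1 (0.117) and Bcl3 (0.119), an atypical IκB gene. Mcl1 was closest to Abhd17c (0.0561), Spty2d1 (0.0578) and the cyclin gene Ccnl1 (0.0653), and Bcl2a1b to the superoxide dismutase gene Sod2 (0.109), Kctd12 (0.111) and the proteoglycan gene Srgn (0.121). Pmaip1 was closest to 3 loci of the annotation class TEC, whose gene models await experimental proof, B130021K23Rik (0.0803), Gm37472 (0.0866) and Gm19327 (0.101), none on its own chromosome. The nearest genes of the sparsely counted Bcl2a1d, Hilpda, Marcksl1 and Pnrc1, lay farther away, at 0.354 to 0.374.

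The rest of the cell death pathway was described by 6 lists, whose median log2 changes at 60 min lay between -0.05 and 0.05. Their counts of calls at 60 min stand against 13.3% higher and 11.7% lower over all genes tested. Those at 30 min stand against 4.84% higher and 3.35% lower. Of 19 other BCL2 family genes 10 were tested, and at 60 min 2 were called higher and 2 lower, with a median log2 change of -0.05 against 0.00 over all genes tested. They were Bnip3, a mitochondrial BH3-like gene (0.61, adjusted p = 0.000746), the BH3-only gene Bmf (-0.61, adjusted p = 0.000571), Bcl2l12 (-0.47) and Bcl2l13 (0.15), the last not called when libraries were scaled by total counts alone. The pore genes Bax and Bak1 were tested and not called at any time. Bmf thus moved opposite to Bcl2l11, from 13.8 CPM (SD 1.42, n = 3) at 0 min to 9.03 CPM (SD 1.19) at 60 min. At 30 min 1 of the 10, Bnip3, was higher and none lower.

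In the list of death receptors and their complexes, where cFLIP acts, 17 of 19 genes were tested, and 5 were higher and 2 lower at 60 min, with a median of -0.03, against 13.3% and 11.7% of all genes; the 5 largest changes are named. The death receptor gene Fas stood at 0.209 CPM (SD 0.123, n = 3) at 0 min and 2.69 CPM (SD 0.913) at 60 min, a log2 change of 3.66 (SE 0.39, adjusted p = 5.94e-06). Its 0 min level was low, like that of the sparsely counted Bcl2a1d (0.128 CPM), so the size of that change is imprecise. Tnfrsf1b, the gene of TNF receptor 2, went from 28.7 to 59.5 CPM, a log2 change of 1.05 (adjusted p = 1.21e-07). Tax1bp1 (0.30) and the deubiquitinase gene Cyld (0.28) were higher, and Rnf31 (-0.28), a subunit gene of the linear ubiquitin ligase, was lower, a call lost without replicate 3 of 0 min (adjusted p = 0.0974) or replicate 1 of 60 min. Casp8 was not called. At 30 min 1 of the 17, Cyld, was higher (4.84% of all genes), a call lost in 5 of the alternatives.

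Among 12 caspase and apoptosome genes none was higher and 2 were lower at 60 min (13.3% and 11.7% of all genes), with a median of -0.01: Casp9 (-0.42, adjusted p = 3.06e-05) and Casp2 (-0.24), both initiator caspases. At 30 min 1 of the 12 was higher (4.84% of all genes), the apoptosome gene Apaf1 (0.16), a call lost in 9 of the alternatives. Of 11 inhibitors of apoptosis and their antagonists 3 were higher and 1 lower, against the same shares. Birc3, the gene of cIAP2, stood at 19.0, 36.1 and 77.9 CPM at 0, 30 and 60 min, and its log2 change at 60 min, 2.04 (SE 0.10, adjusted p = 1.67e-09), was close to those of Cflar and Bcl2l11. Birc2, the gene of cIAP1, was higher by 0.55 (adjusted p = 8.69e-05) and Xiap by 0.14, and Naip6 was lower (-0.31). The Xiap call was lost in 7 of the alternatives.

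Of 8 genes for the turnover of MCL1 and BCL2 proteins 3 were higher at 60 min and none lower, against 13.3% and 11.7% of all genes. Ier3, whose product is known to bind MCL1, went from 10.7 CPM at 0 min to 129 CPM at 30 min and 121 CPM at 60 min (log2 change 3.49, SE 0.12, adjusted p = 5.27e-11). Gsk3b and the deubiquitinase gene Usp9x were each higher by 0.10, calls lost in 11 and 10 of the alternatives. Of 11 mitochondrial genes 2 were higher at 60 min, Tmbim6 (0.18) and Mff (0.15), the latter a call lost in 5 of the alternatives. Ier3 and Birc3 were the genes of their lists called at 30 min, both higher, and no mitochondrial gene was, where 4.84% of all genes were higher. From 30 to 60 min 1 gene was higher and 1 lower among the other BCL2 family genes, 3 and 1 among the death receptor genes, 0 and 1 among the caspases and 2 and 1 among the inhibitors of apoptosis, and no gene of the last 2 lists was called, where 8.87% of all genes were higher and 7.65% lower. Of these calls Bcl2l13 was lost in 10 of the alternatives, Naip6 in 3 and Birc2 in 2.

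**Figure D5:**
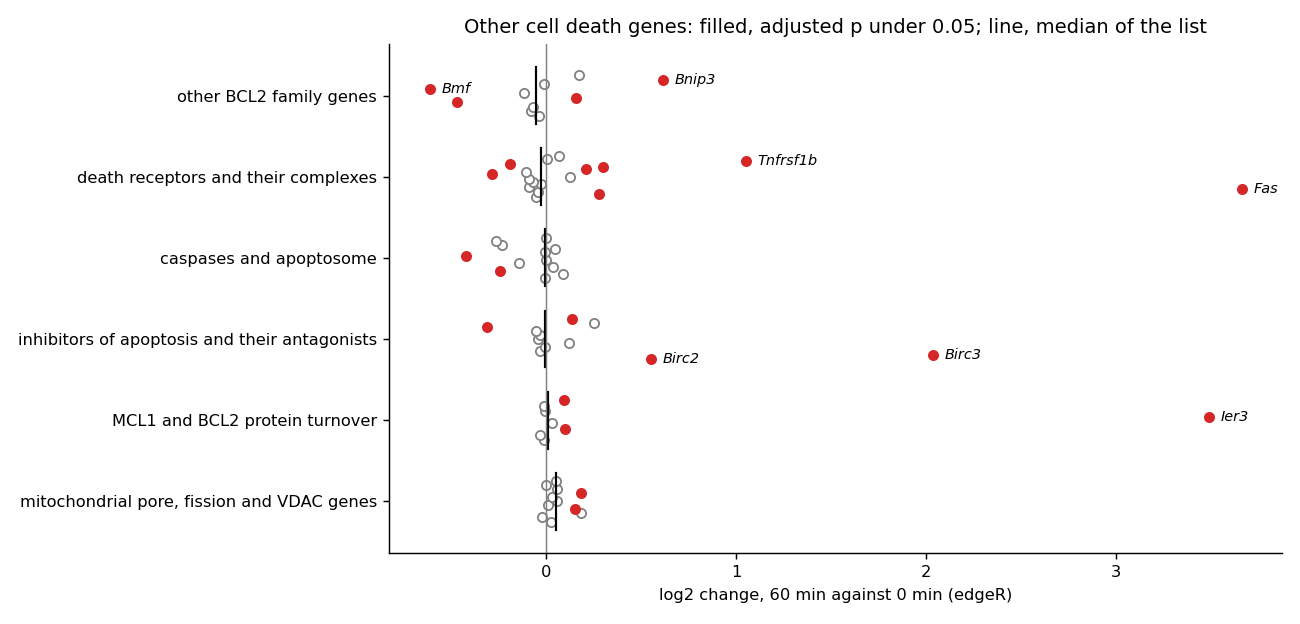
Log2 change at 60 against 0 min (edgeR) of the tested genes of 6 cell death lists, 1 row per list; filled points have an adjusted p under 0.05, and black lines are list medians. Fas, Ier3 and Birc3 lie far to the right, Fas from a mean of 0.209 CPM at 0 min, and the medians lie between -0.05 and 0.05.

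The authors' deposited tables of their own comparisons called 5 of the 10 genes higher at 30 min and 6 at 60 min at an adjusted p under 0.05, and none lower. The gene that differed at 30 min was Bcl2a1d. The share of all genes called in those deposited tables was not worked out, so the counts of 5 and 6 have no background beside them. In the authors' deposited table Cflar had a log2 fold change of 0.69 with an adjusted p of 0.0117 at 30 min.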

How the data were processed

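RNA was measured in 9 libraries by stranded total RNA sequencing with ribosomal RNA removed. The authors deposited expected counts per gene, estimated with RSEM 1.3.1 after STAR 2.7.0f on mm10, per the submitters' processing notes; the annotation and strand setting: not given in the sources used here. The deposited comparison tables hold, per the file headers, a normalized mean count per gene (a signal value), a log2 fold change, a test score and p-values, from DESeq2 per the submitters' processing notes.

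Expected counts were rounded (5.04% to 5.32% per library were not whole), and all 9 libraries entered one quasi-likelihood fit of edgeR 4.0.16 with TMM scaling (factors 0.970 to 1.03), time as the only term, and filterByExpr at its minimum count of 10. Tests are two-sided, with Benjamini-Hochberg adjustment over 14246 genes and a threshold of 0.05. The fitted coefficient of variation between replicates was 5.20%. SEs were worked back from the F statistic, and 95% intervals use the test's own degrees of freedom. Replicates differed beyond sampling noise, with a mean chi-square of at least 5.03 over genes. Genes and lengths came from GENCODE M21 (55450 of 55450 identifiers matched), promoter stretches from RefSeq. The method was tested on data simulated from the fitted means and spread of these libraries. Sparsely counted genes such as Bcl2a1d were not among those given a change there, so it does not bear on calls near the floor.

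Named genes were the 10 members, the called genes of 6 pathway lists at 60 min (at most 5 a list, by size of change) and the 3 genes of closest course per called member; Apaf1, Bax, Bak1 and Casp8 were added after their values were seen. Members and lists were chosen with earlier results of these data known. Alternatives were other scaling (edgeR RLE, total counts), filters (none, a minimum count of 50), tools (DESeq2 1.42.0, limma-voom with limma 3.58.1), fits on the compared groups alone, a replicate block, unrounded counts, summed Bcl2a1 copies, and each library left out. The marker check of 1 other cell type is not reported here.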

Additional observations from a re-analysis of the deposited data

Results flagged for a closer look

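The step from 30 to 60 min tests whether the effects at the 2 times differ, and it did for 5 of the 10 genes in edgeR's quasi-likelihood test, with Benjamini-Hochberg adjusted p of 0.00217 or below, where 16.5% of all genes tested were called in either direction. The log2 change between the times was 1.34 for Cflar, 0.58 for Bcl2a1b, 0.44 for Bcl2l11 and 0.43 for Mcl1, and -0.52 for Pmaip1, which was the one that turned. In each of these genes all 3 libraries of 60 min lay on the same side of all 3 libraries of 30 min. Over all genes tested, 17.1% lay wholly above and 16.7% wholly below. That separation describes the values the test used and is no further evidence.

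Bcl2a1a, the third A1 copy with counts, was too low to enter the fit. Its expected counts summed to 14.66 over the 60 min libraries, with 4.45, 6.83 and 3.38 in single libraries, to 2.75 at 30 min, and to 0 in all libraries of 0 min. Set against a floor of 3 counts over the group of 0 min libraries, the level at 60 min was 4.61 times that floor. The counts at 60 min carry an error of their own, so this is not a lower bound. Whether these reads came from Bcl2a1a or from its near-identical copies was not tested.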

How the results depend on the processing

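Of 561 log2 changes of the 10 genes recomputed under 19 alternatives, 534 kept their direction and side of the threshold. Bcl2a1d at 30 min lost its call in 12, with adjusted p of 0.0507 (total counts), 0.0738 (DESeq2), 0.0619 (limma-voom), 0.0637 (unrounded counts) and up to 0.15 with a library left out. Calls appeared in 2 cases: Bbc3 at 60 min without replicate 3 of 60 min, and the 30 to 60 min step of Bcl2a1d without replicate 2 of 60 min (1.07, adjusted p = 0.0433). The 13 reversals were in changes that were not called. With a library left out, Bcl2 at 30 min ran from -0.087 to 0.020 (reversed without replicate 3 of 0 min), and Bcl2l1 from -0.055 to 0.018 (without replicate 1 of 0 min, and 0.000816 without replicate 2 of 30 min). At 60 min Bcl2l1 ran from -0.00189 (without replicate 3 of 60 min) to 0.080, and Bid from -0.018 to 0.000473 (without replicate 2 of 0 min). By total counts Bcl2l1 at 60 min was -0.029, and Bid from 30 to 60 min -0.018. Bbc3 from 30 to 60 min gave 0.00167 (RLE), 0.00226 (no filter), 0.00534 (minimum count 50), 0.00169 (DESeq2), 0.09 (without replicate 2 of 30 min), and -0.053 to 0.095 over the left-out libraries, the highest without replicate 3 of 60 min. Members called ranged from 5 to 6 at 30 min, 5 to 7 at 60 min, and 4 to 5 higher with 1 lower from 30 to 60 min; with a minimum count of 50 Bcl2a1d was not tested, and summing the copies leaves 9 genes.

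Over all genes, those lower at 30 min numbered 477 and became 757 with no filter and 290 to 523 with a library left out. By total counts alone, genes lower at 60 min went from 1671 to 3048 and from 30 to 60 min from 1090 to 1672, and the share of calls that were higher went from 59.1% to 45.9% at 30 min, 53.1% to 30.1% at 60 min and 53.7% to 37.5% between them; the causes were not tested. Over all genes tested, same-numbered libraries did not deviate together (correlations -0.0637 to 0.00609), so the numbers were not taken to pair them. Replicate 1 was also the highest library of 60 min for Mcl1, Bcl2l11, Cflar, Bcl2a1b and Bcl2a1d, and the lowest for Pmaip1. A link between same-numbered libraries in the genes that rose alone was not tested. The replicate block changed no call of the 10 genes, with Cflar at 0.67 at 30 min and 2.03 at 60 min. Chosen after seeing the data were the length taken for a gene, and the shares, levels and ratios without replicate 1 of 30 min. The length moved middle ranks, the ratio of Mcl1 to Bcl2l11 and the ratio of the sums, as given above. Among the values without replicate 1, the share of Cflar (20.0% to 13.0%) moved by over 1.5 times. Depth limits Bcl2a1d, at 3.46 to 26.66 counts a library.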
